A study of Mus musculus with 6 samples.

Results

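The genes described are 36 cell cycle and DNA replication genes: 8 G1 cyclins, their kinases and E2f1, 11 replication genes and 17 mitosis genes. They were chosen by name and not by a cut on their measured values, but with earlier results of these data known. Of the 36 genes, 35 were matched through the platform annotation to 86 of the 45037 probe sets of the array, and Ccnb1 was not analysed here. Of the 86 probe sets, 84 passed the filter on low values (29783 did in all), and each of the 35 genes kept at least 1. Where a gene has several kept probe sets, the brightest on average stands for it in summaries. Intensities of different probe sets are not compared with each other.

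RNA of sorted granulocyte/macrophage progenitors (GMPs), the marrow precursors of granulocytes and monocytes, was hybridised to 6 Affymetrix Mouse Genome 430 2.0 arrays, 2 per genotype. The genotypes were wild type (WT), IRF8 knockout (IRF8KO) and double knockout of IRF4 and IRF8 (IRF4/8DKO), all with the strain label BL6. Both IRF proteins are transcription factors that act in blood cells, and the series' title names their combined loss in blood cancers as its subject. The sort was for cells negative for lineage markers, IL-7R and Sca1, positive for Kit and CD34 and high for the Fc receptors II and III. Replicate 1 of WT was a male of 12 weeks and replicate 2 a female of 19 weeks. The IRF8KO mice were a female of 12 weeks (replicate 1) and a male of 22 weeks (replicate 2). Both IRF4/8DKO mice were 16 weeks old, a male (replicate 1) and a female (replicate 2). The sources used here do not give how the knockout alleles were made or whether cells of several mice were pooled.

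D-type cyclins bind Cdk4 and Cdk6 early in G1 and, with cyclin E and its kinase, lead to release of E2F factors from RB proteins. E2F factors drive genes for origin licensing (Cdc6 and the Mcm helicase), the replication clamp and nucleotide supply. Later, cyclin A and cyclin B with Cdk1 drive entry into mitosis, where kinesins, checkpoint kinases and centromere proteins sort the chromosomes. Mitotic genes are commonly controlled through a CHR element near the start site with CCAAT boxes, and replication genes through E2F sites. GMPs are a dividing population in marrow.

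Promoter sequences are shown for 4 genes that the results below turn on or that stand for a role group: Ccne1, the E cyclin that stood highest in IRF8KO; Mcm6, a helicase subunit; and Cdk1 and Ccnb2, the mitotic kinase and a B cyclin. They were picked after values had been seen. Each runs 5′ to 3′ from 250 bases before to 50 after the RefSeq start site on build GRCm38.p6. Capitals mark matches, on either strand, to the CHR words TTTGAA and TTTAAA, the CCAAT box CCAAT, and the E2F words TTTGGCGC, TTTGCCGC, TTTCGCGC and TTTCCCGC.
Ccne1, chr7:38107441-38107740, minus strand: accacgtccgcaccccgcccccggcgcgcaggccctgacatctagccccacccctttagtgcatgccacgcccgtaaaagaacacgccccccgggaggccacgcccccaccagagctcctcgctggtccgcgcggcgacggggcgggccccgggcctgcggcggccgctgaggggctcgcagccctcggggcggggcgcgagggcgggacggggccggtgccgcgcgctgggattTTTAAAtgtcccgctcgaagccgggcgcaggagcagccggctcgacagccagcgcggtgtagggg
Mcm6, chr1:128359656-128359955, minus strand: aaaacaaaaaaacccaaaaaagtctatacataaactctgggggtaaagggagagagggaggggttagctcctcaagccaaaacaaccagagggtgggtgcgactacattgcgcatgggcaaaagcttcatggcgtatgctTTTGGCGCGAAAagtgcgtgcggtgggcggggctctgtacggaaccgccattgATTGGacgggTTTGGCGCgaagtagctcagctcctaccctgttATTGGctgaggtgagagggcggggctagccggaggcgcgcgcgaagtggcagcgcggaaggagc
Cdk1, chr10:69352863-69353162, minus strand: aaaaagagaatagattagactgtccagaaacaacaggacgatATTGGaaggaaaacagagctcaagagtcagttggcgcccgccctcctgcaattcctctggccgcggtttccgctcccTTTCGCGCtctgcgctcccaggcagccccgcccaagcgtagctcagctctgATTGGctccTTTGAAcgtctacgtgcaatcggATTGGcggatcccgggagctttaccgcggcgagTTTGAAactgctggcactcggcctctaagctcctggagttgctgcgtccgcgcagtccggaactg
Ccnb2, chr9:70421505-70421804, minus strand: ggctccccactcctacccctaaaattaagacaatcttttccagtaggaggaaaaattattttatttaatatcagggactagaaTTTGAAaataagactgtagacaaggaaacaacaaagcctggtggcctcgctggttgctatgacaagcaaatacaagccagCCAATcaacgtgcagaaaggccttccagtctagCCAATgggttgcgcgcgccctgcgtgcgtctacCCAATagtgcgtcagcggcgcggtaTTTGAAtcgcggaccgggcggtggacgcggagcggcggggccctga

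The 4 windows differ in which words they hold. Cdk1 and Ccnb2 each hold 2 CHR and 3 CCAAT matches, to which Cdk1 adds 1 E2F match. Mcm6 holds 2 CCAAT and 3 E2F matches, with 2 of the E2F words overlapping in 1 run, and Ccne1 holds 1 CHR match. Over all 32851 RefSeq windows of 300 bases, 27.6% held a CHR word, 37.4% a CCAAT box and 2.26% an E2F word. Windows were found for 30 of the 36 genes (32 windows). Among the 15 mitosis windows, 14 held a CHR word, 14 a CCAAT box and 1 an E2F word. Among the 11 replication windows these were 4, 8 and 5, and among the 6 G1 windows 1, 1 and 0. A match is only a run of letters in the window and was not tested for binding.

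The 35 genes as a group lay close to their WT levels in both knockout genotypes, and none passed the test. With limma over all 29783 kept probe sets and Benjamini-Hochberg adjustment, 0 of the 35 genes and 0 of their 84 probe sets were below an adjusted p of 0.05 in IRF8KO against WT, where 0.0302% of all probe sets were. The same count was 0 in IRF4/8DKO against WT (0.299% of all), 0 in IRF4/8DKO against IRF8KO (0% of all) and 0 in both knockout genotypes against WT (0.601% of all). These comparisons share arrays. At an unadjusted p below 0.05 the 84 probe sets gave 14.3% in IRF8KO against 13.5% of all, and 5.95% in IRF4/8DKO against 9.05% of all. IRF4/8DKO against IRF8KO gave 9.52% against 8.52% of all, and both knockouts together 8.33% against 11.6% of all. These shares lie near the background.

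The median log2 difference from WT over the 35 genes was -0.02 in IRF8KO and -0.11 in IRF4/8DKO, beside -0.06 and -0.04 over all kept probe sets. With each array centred on its median over all probe sets, the genes' medians became 0.12 and 0.11 and those of all probe sets 0.08 and 0.18, so the sign of these small medians depends on the scaling. By array, the genes' median against the WT mean was -0.06 and 0.06 in WT, -0.06 and 0.05 in IRF8KO, and -0.03 and -0.09 in IRF4/8DKO. The knockout arrays therefore lay within or just beyond the spread of the WT arrays. The difference lay within 1 log2 unit for 33 of 35 genes in IRF8KO and 35 of 35 in IRF4/8DKO. Its whole 95% interval lay within that band for only 21 and 18 genes, so a 2-fold difference cannot be set aside for the remaining genes with 2 arrays per genotype.

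**Figure D1:**
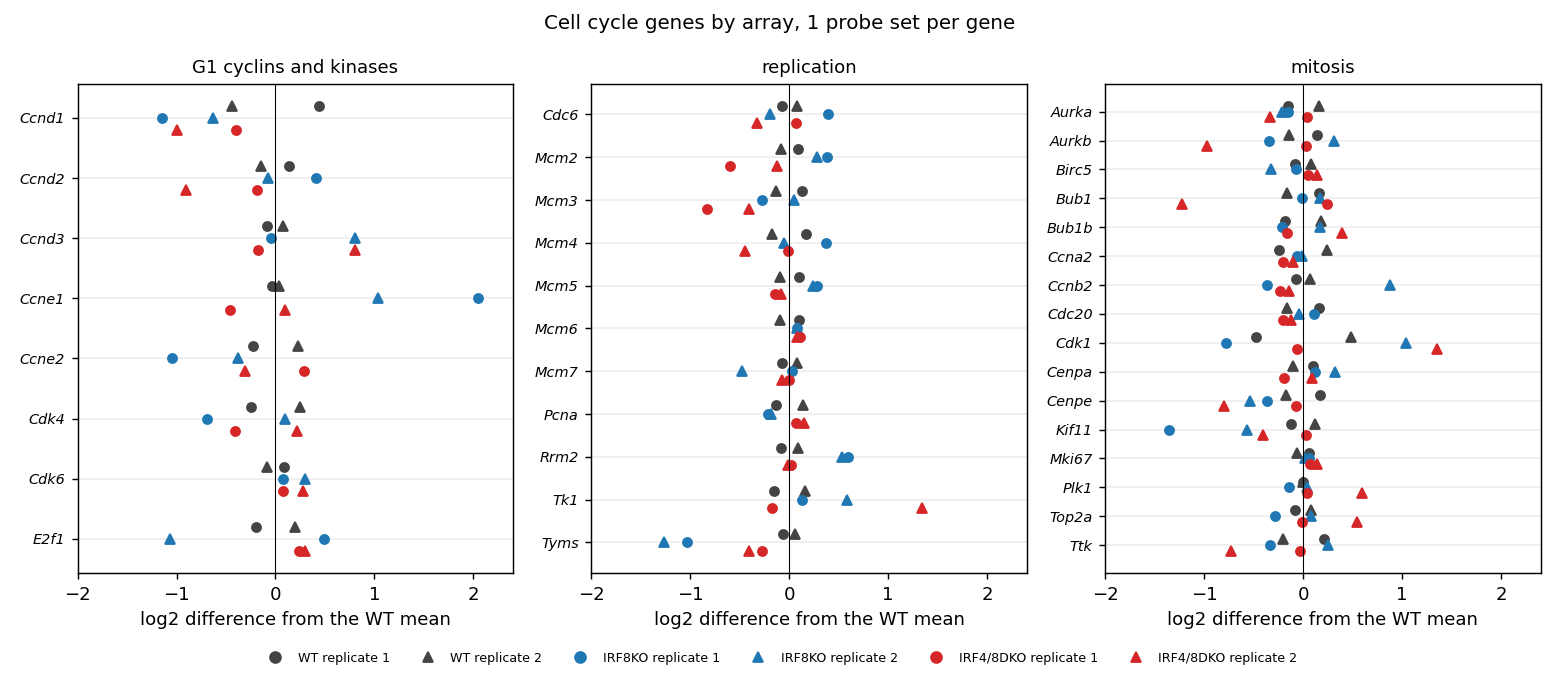
Log2 difference of each array from the WT mean (x axis) for the 35 genes, 1 probe set per gene, in panels by role; each point is 1 array, coloured by genotype and shaped by replicate. Most points lie within 1 log2 unit of 0, and Ccne1 in the IRF8KO arrays lies furthest above it.

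Whole-library checks set the frame for these values. Array medians ran from 34.1 to 45.3 in intensity. Markers of other cell types differed between genotypes: over 10 kept markers of eosinophils, basophils and mast cells the median log2 difference was -2.11 in IRF8KO and -4.02 in IRF4/8DKO. It was -2.05 and -3.32 for 9 erythroid markers, -1.32 and -3.52 for 5 megakaryocyte markers, and 1.56 and 0.77 for 11 neutrophil maturation markers. By limma at an adjusted p below 0.05, IRF4/8DKO had lower Tfr2, Pf4, Cavin2, Cpa3, Gata2, Ms4a2 and Prg2 and higher Mmp8. These lists had 0 calls in IRF8KO. At an unadjusted limma p below 0.05, IRF8KO had 5, 2, 6 and 4 genes of the erythroid, megakaryocyte, eosinophil and neutrophil lists. The share of all kept probe sets there was 13.5%. The 7 housekeeping genes had medians of -0.10 and -0.00. Summed intensity of the eosinophil, basophil and mast cell list was 17864 to 21915 in WT, 12793 to 14332 in IRF8KO and 10829 to 11525 in IRF4/8DKO. A sum weighs bright genes most, and 1 of these 10 genes lay above WT in IRF4/8DKO while 9 lay below. The sum is therefore no measure of how much signal the falling markers kept. The erythroid sums were 7494 to 10158, 4082 to 4451 and 4466 to 6214. The megakaryocyte sums were 1161 to 4759, 582 to 1684 and 83.8 to 115. The neutrophil sums were 13407 to 33833, 34160 to 59728 and 29256 to 57135. The lowest value of any probe set was 0.69, so no marker could read 0, and a value above 0 does not show expression. The lowest megakaryocyte marker value was 1, in replicate 2 of IRF4/8DKO. The lowest erythroid value was 1.62, in replicate 2 of IRF8KO. For eosinophil, basophil and mast cell markers it was 1.7, in replicate 1 of IRF4/8DKO. For neutrophil markers it was 10.19, in replicate 2 of WT. The part of these cell types in the results was not tested, and in bulk samples fewer cells of a type and less RNA per cell cannot be told apart. Mpo, a granule enzyme of GMPs, read 12946 to 15417 on the 6 arrays. Of the genes of the sort, Kit read 1679.5 to 2426 on 1452514_a_at and 267 to 416 on 1415900_a_at. Cd34 was 1747 and 1401 in WT and 440.3 to 669 in the knockout arrays. Fcgr3 was 1089.6 and 1259 in WT and 2516 to 6315 in the knockout arrays. Fcgr2b did not share that direction on all its probe sets. On 1455332_x_at it read 270 and 470 in WT, 186 and 264 in IRF8KO, and 440 and 608 in IRF4/8DKO. On 1435477_s_at it read 512 and 770, 618 and 1040, and 854 and 1271. Il7r read 4.31 to 27.1 on 1448575_at and 1.19 to 17.1 on 1448576_at. Irf8, targeted in both knockout genotypes, was not lower in the arrays with those labels. It read 2588 and 3052 in WT, 3811 and 2602 in IRF8KO, and 2611 and 4778 in IRF4/8DKO on 1416714_at. On 1448452_at it read 507 and 704, 1333 and 1131, and 934 and 1899.8, so that all 4 knockout arrays lay above WT. Irf4 was low on every array. On 1421173_at it read 32.1 and 23.4 in WT, 13.8 and 7.66 in IRF8KO, and 66 and 54.6 in IRF4/8DKO, and on 1421174_at 33.1 and 16.8, 29.7 and 14.1, and 11.8 and 20.1. Where these probe sets lie relative to the deletions is not stated in the labels, so whether they can check the genotypes is not known, and every direction below rests on the labels.

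Among the G1 genes, Ccnd2, a D cyclin that activates Cdk4 and Cdk6, lay lower in both knockout genotypes on most of its probe sets. All probe sets of Ccnd2, Ccne1 and E2f1 are described, a choice made after their values were seen. On probe set 1416122_at the WT arrays read 818 and 1136, the IRF8KO arrays 388 and 273 and the IRF4/8DKO arrays 341 and 386 (replicate 1 first, here and below). All 4 knockout arrays lay below both WT arrays. The log2 difference of the knockouts from WT was -1.46 ± 0.36 (SE, 95% interval -2.27 to -0.65, 2.75-fold, limma unadjusted p = 0.00278, adjusted p = 0.135).

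The other Ccnd2 probe sets split 5 to 1. On 1416123_at the values were 1243 and 1459 in WT, 508 and 573 in IRF8KO, and 806 and 796 in IRF4/8DKO. On 1434745_at they were 1020.5 and 1261, 663 and 729, and 629 and 481. In both, the 4 knockout arrays again lay below the WT arrays, by -1.02 and -0.86 on the log2 scale (limma adjusted p = 0.209 and 0.329). The same held on 1448229_s_at (1013 and 1375, 584 and 491, 802 and 618), on 1455956_x_at (817 and 1076, 405 and 213, 398 and 318) and on 1430127_a_at (558 and 807, 253 and 482, 339 and 362). Their differences were -0.93, -1.51 and -0.92 (limma adjusted p = 0.302, 0.156 and 0.414). The probe set with the highest mean, 1416124_at, which stands for the gene in the summaries, differed: 5435 and 4464 in WT, 6541 and 4663 in IRF8KO, 4323 and 2627 in IRF4/8DKO. There the IRF8KO arrays overlapped WT (log2 difference 0.16, limma adjusted p = 0.845). Both IRF4/8DKO arrays lay below WT on it too (-0.55, limma adjusted p = 0.652). For both knockouts together the difference was -0.19 (limma adjusted p = 0.824). Thus in 6 of the 7 probe sets all knockout arrays were lower. Over all 84 probe sets this was so for 11 (13.1%), beside 12.5% of all kept probe sets, and 1 was higher (1.19%, beside 8.51%); probe sets of 1 gene share its RNA and are not replicates. With the mean over the 7 probe sets the difference was -1.01 ± 0.28 in IRF8KO (limma adjusted p = 0.208) and -0.96 ± 0.28 in IRF4/8DKO (adjusted p = 0.287). Without replicate 1 of IRF8KO, 1416122_at (-1.58, limma adjusted p = 0.0449) and 1455956_x_at (-1.73, adjusted p = 0.0336) passed the threshold for both knockouts against WT. In IRF8KO alone 1455956_x_at did too (-2.09, limma adjusted p = 0.0446). That fit called 3.42% of all probe sets for both knockouts and 3.66% for IRF8KO. Without replicate 2 instead, none of these passed: -1.34 and -1.28 for both knockouts (limma adjusted p = 0.0959 and 0.111) and -1.19 in IRF8KO (adjusted p = 0.257).

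Ccne1, cyclin E1, which activates Cdk2 at the start of S phase, had its highest values on the IRF8KO arrays. Probe set 1416492_at read 221 and 232 in WT, 967 and 474 in IRF8KO, and 161 and 242 in IRF4/8DKO. Probe set 1441910_x_at read 165 and 179.8, 419.6 and 1545, and 179 and 184. On both, each IRF8KO array lay above every other array. The IRF8KO difference from WT was 1.54 ± 0.48 on the first (2.91-fold, 95% interval 0.45 to 2.63, limma adjusted p = 0.229) and 2.16 ± 0.59 on the second (4.47-fold, limma adjusted p = 0.183). The IRF8KO array that was higher was replicate 1 on the first probe set and replicate 2 on the second. IRF4/8DKO differed from WT by -0.18 (95% interval -1.28 to 0.91) and 0.07. IRF4/8DKO lay below IRF8KO by -1.72 ± 0.48 and -2.09 ± 0.59, which did not pass the test either (limma adjusted p = 0.537 for both). Without replicate 1 of IRF8KO the second probe set passed: 3.09 in IRF8KO against WT (limma adjusted p = 0.0106), -3.02 in IRF4/8DKO against IRF8KO (adjusted p = 0.0275) and 1.58 in both knockouts against WT (adjusted p = 0.0441). That fit called 3.66%, 0.672% and 3.42% of all probe sets in these comparisons. Without replicate 2 instead, the values were 1.23, -1.16 and 0.65 (limma adjusted p = 0.241, 0.342 and 0.444).

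E2f1, the factor that turns on many replication genes, gave different pictures on its 3 probe sets. On 1431875_a_at the values were 117 and 134 in WT, 234 and 288 in IRF8KO, and 274 and 396 in IRF4/8DKO, so that all knockout arrays lay above WT. The difference was 0.99 in IRF8KO, 1.32 in IRF4/8DKO and 1.16 ± 0.37 in both together (limma adjusted p = 0.363, 0.358 and 0.254). The probe set with the highest mean, 1417878_at, overlapped: 781 and 1029.8, 1266 and 422, 1058 and 1103. On 1447840_x_at only replicate 2 of IRF8KO stood out, at 198 beside 24.3 to 39.7 on the other arrays. Without replicate 1 of IRF8KO that probe set's difference was 2.47 (limma adjusted p = 0.0188), and without replicate 2 it was -0.12.

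**Figure D2:**
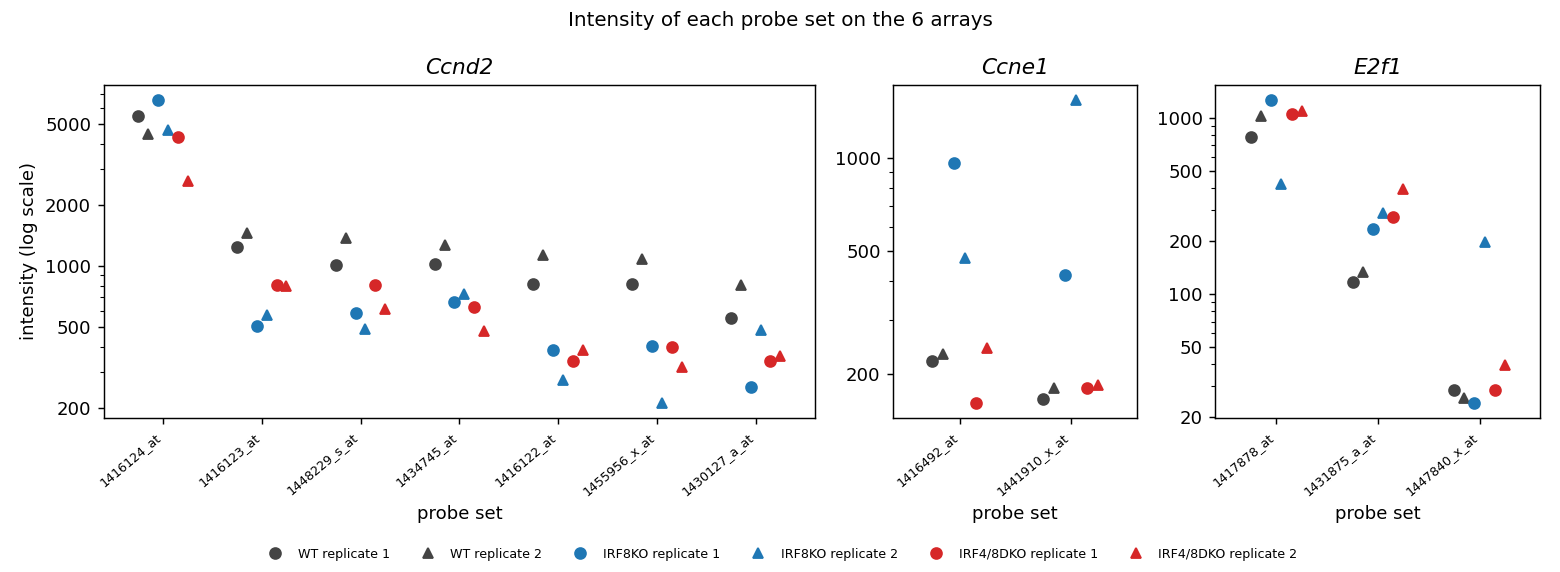
Intensity on a log axis (y axis) of each probe set of Ccnd2, Ccne1 and E2f1 (x axis) on the 6 arrays; colours are genotypes and shapes replicates. On 6 of the 7 Ccnd2 probe sets the 4 knockout arrays lie below both WT arrays, and on both Ccne1 probe sets the IRF8KO arrays lie above all others.

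The remaining G1 genes did not separate the genotypes with an adjusted p under the threshold. Their values here are from summary probe sets unless another is named. Ccnd1, another D cyclin, read 692 and 373 in WT, 224 and 324 in IRF8KO, and 384 and 249.9 in IRF4/8DKO. The IRF8KO arrays lay below WT and the IRF4/8DKO arrays overlapped it (log2 differences -0.89 and -0.70, limma adjusted p = 0.458 and 0.762). On 1417420_at the IRF8KO arrays lay below WT too (-1.01 and -0.33), but on 1417419_at they overlapped it (0.18 and -0.19). The third D cyclin, Ccnd3, differed by 0.38 and 0.31. Ccne2, the second E cyclin, read 198 and 276 in WT, 107 and 178 in IRF8KO, and 288 and 186 in IRF4/8DKO (-0.71 and -0.01). On these probe sets the kinases Cdk4 (-0.30 and -0.09) and Cdk6 (0.19 and 0.18), partners of the D cyclins, lay within 0.30 log2 units of WT. On another Cdk6 probe set, 1455287_at, both IRF8KO arrays lay below WT. The differences there were -0.49 in IRF8KO and 0.17 in IRF4/8DKO (limma adjusted p = 0.399 and 0.889).

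Among the 11 replication genes, those with the largest IRF8KO differences from WT on their summary probe sets, Tyms and Rrm2, act in nucleotide supply. Rrm2, the regulated subunit of ribonucleotide reductase, read 4053 and 4563 in WT, 6503 and 6224 in IRF8KO, and 4340.4 and 4271 in IRF4/8DKO. The IRF8KO arrays lay above all others, by 0.56 ± 0.19 over WT (1.48-fold, limma adjusted p = 0.255) and with IRF4/8DKO below IRF8KO by -0.56 ± 0.19 (adjusted p = 0.548). A second probe set, 1448226_at, had the IRF8KO arrays (4058 and 3598) above all others too. On the third, 1416120_at, the groups overlapped, with IRF8KO -0.15 from WT and IRF4/8DKO 0.36 above IRF8KO. The IRF4/8DKO difference from WT on the first was 0.00 (95% interval -0.42 to 0.42). Tyms, thymidylate synthase, read 217 and 237 in WT, 105 and 88.4 in IRF8KO, and 186 and 169 in IRF4/8DKO. It was the only gene of the 35 whose summary probe set had all 4 knockout arrays below WT (IRF8KO -1.15 ± 0.41, limma adjusted p = 0.277; both knockouts -0.74 ± 0.35, adjusted p = 0.467). Its other probe sets did not all share this: 1427811_at differed by 0.51 in IRF8KO. Tk1, thymidine kinase, read 767 and 956 in WT, 940.4 and 1293 in IRF8KO, and 759 and 2195 in IRF4/8DKO, with the groups overlapping.

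The helicase genes stayed within 1 log2 unit of WT on their summary probe sets. Mcm3 read 4917 and 4103 in WT, 3709.8 and 4657 in IRF8KO, and 2525 and 3389 in IRF4/8DKO, the last 2 below WT (-0.62 ± 0.25, limma adjusted p = 0.491). A further Mcm3 probe set, 1426653_at, differed from WT by -1.30 in IRF8KO and -0.08 in IRF4/8DKO. Mcm2 read 1979.5 and 1757, 2434 and 2261, and 1226 and 1710.2. Its IRF8KO arrays lay above and its IRF4/8DKO arrays below WT, and IRF4/8DKO lay -0.69 ± 0.29 below IRF8KO (limma adjusted p = 0.579). On Mcm2 1448777_at the groups overlapped, with differences from WT of -0.11 and -0.27. On their summary probe sets, Mcm4, Mcm5, Mcm6 and Mcm7 differed from WT by -0.23 to 0.26 in either genotype. Some of their other probe sets went further. Mcm7 1416030_a_at differed by -1.07 in IRF8KO (limma adjusted p = 0.447) and 0.15 in IRF4/8DKO. All 4 Mcm7 probe sets lay below 0 in IRF8KO, 3 of them with both arrays below WT. Mcm6 1416251_at differed by -0.47 and 0.39, and Mcm5 1459658_at by -0.07 and 0.67. Mcm6, whose E2F words are shown above, read 7896 to 9126 over the 6 arrays on its summary probe set. The clamp Pcna (-0.20 and 0.11) and the loader Cdc6 (0.10 and -0.13) were likewise near WT.

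Values of the 16 mitosis genes are from summary probe sets unless another is named. Kif11, a spindle kinesin, had the lowest p of these genes in IRF8KO. It read 2210.4 and 2614 in WT, 933 and 1619 in IRF8KO, and 2457 and 1811 in IRF4/8DKO. The IRF8KO arrays lay below all others (-0.96 ± 0.35, limma adjusted p = 0.287). On 1435306_a_at the IRF8KO difference was -0.41, with overlapping arrays. The remaining probe set, 1452314_at, lay above WT by 0.30. Mki67, the proliferation marker Ki-67, was even across arrays at 6576 and 6024 in WT, 6537 and 6392 in IRF8KO, and 6589 and 6959 in IRF4/8DKO. Its difference from WT was 0.04 in IRF8KO (95% interval -0.33 to 0.41) and 0.11 in IRF4/8DKO (-0.27 to 0.48). Top2a, the mitotic topoisomerase, differed by -0.10 and 0.27, and the survivin gene Birc5 by -0.20 and 0.09. The other Top2a probe sets disagreed with each other. On 1442454_at the differences were -0.52 and -0.77. On 1427724_at, which read only 7.87 to 28.9, they were 0.99 and 0.38.

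Cdk1, the kinase of mitotic entry, had its arrays of 1 genotype further apart than its genotype means. It read 1287 and 2515 in WT, 1043 and 3708 in IRF8KO, and 1721 and 4622 in IRF4/8DKO. The arrays of a genotype were 1.95-fold, 3.56-fold and 2.69-fold apart, and the IRF8KO difference of 0.13 had an interval of -1.34 to 1.59. The higher array was replicate 2 in every genotype, as it was for Ccnd3, Cdk4, Tk1 and Bub1b on their summary probe sets. Replicate 2 of each also had the higher neutrophil maturation list median (0.88, 2.47 and 2.06 against the WT mean, beside -0.88, 0.65 and 0.12). The part of those cells was not tested. Ccnb2, a B cyclin whose promoter also holds CHR and CCAAT words, read 1520.0 and 1686 in WT, 1239 and 2948 in IRF8KO, and 1362 and 1452 in IRF4/8DKO. Its high array was replicate 2 of IRF8KO alone.

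The kinases and checkpoint genes of mitosis followed no common direction. On summary probe sets, Aurka, Aurkb, Plk1, Bub1, Bub1b and Ttk differed from WT by -0.18 to 0.08 in IRF8KO and by -0.49 to 0.32 in IRF4/8DKO. Some other probe sets went further: Ttk 1442594_at by -0.63 and -0.51, Bub1 1424046_at by -0.26 and -0.42, and Aurkb 1424128_x_at by -0.02 and -0.64. The other Bub1b probe sets differed by 0.04 to 0.29. Aurkb, the kinase of the chromosomal passenger complex, read 1696 and 1399, 1214 and 1911, and 1575 and 779.7, and Bub1, a checkpoint kinase, 959 and 762, 849 and 964, and 1015 and 361. In both, replicate 2 of IRF4/8DKO was the lowest array. The A cyclin Ccna2 (-0.04 and -0.15) and the anaphase activator Cdc20 (0.04 and -0.16) lay near WT. The centromere genes Cenpa (0.22 and -0.05) and Cenpe (-0.45 and -0.44) did not pass either. Cenpe read 1125 and 885 in WT, 775 and 685 in IRF8KO, and 949 and 569 in IRF4/8DKO. On Cenpa 1444416_at the differences were -0.93 and -0.36, with both IRF8KO arrays below WT (limma adjusted p = 0.390 in IRF8KO). On Cenpa 1441864_x_at they were -0.15 in both genotypes.

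**Figure D3:**
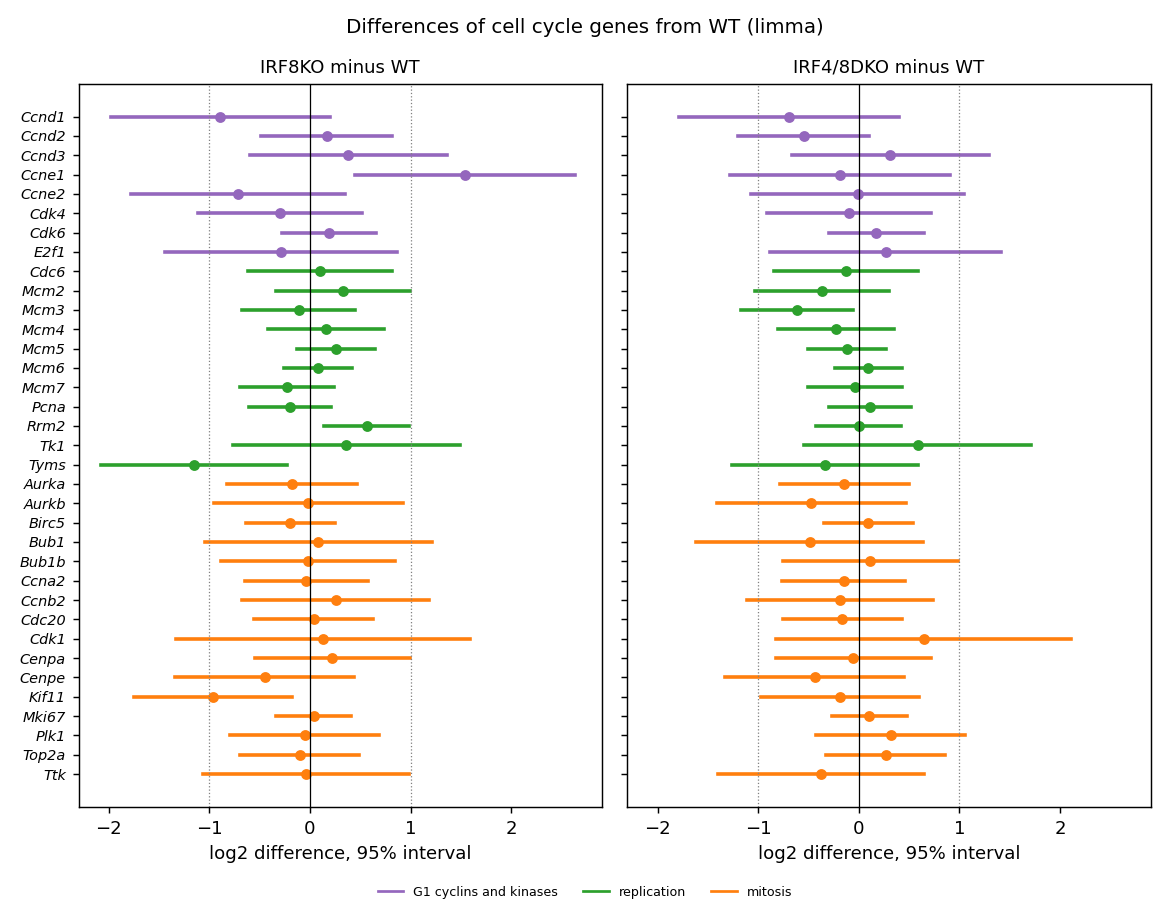
Log2 difference from WT with its 95% interval from limma (x axis) for the 35 genes, in IRF8KO (left) and IRF4/8DKO (right), coloured by role. The interval lies within 1 log2 unit of 0 for 21 genes in IRF8KO and 18 in IRF4/8DKO.

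By role group, medians from WT were -0.06 (G1), 0.10 (replication) and -0.03 (mitosis) in IRF8KO, and -0.05, -0.11 and -0.15 in IRF4/8DKO. In IRF4/8DKO against IRF8KO they were 0.09, -0.23 and 0.02. Non-overlap gave a like picture: of the 84 probe sets, 10 lay higher and 24 lower in both IRF8KO arrays than in both WT arrays (11.9% and 28.6%, beside 19.8% and 25.9% of all). In IRF4/8DKO 7 lay higher and 21 lower (8.33% and 25%, beside 18.3% and 25.3% of all). The lower shares are near the background and the higher shares below it. Of the 26 genes with several kept probe sets, all had the same sign in 9 for IRF8KO and in 16 for IRF4/8DKO.

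Between the arrays of a genotype, 0 of 35 genes in WT, 4 in IRF8KO and 4 in IRF4/8DKO were over 2-fold apart (0%, 11.4% and 11.4%), beside 11%, 30.9% and 20.1% of all kept probe sets. The difference between these shares was not tested, and the probe sets were not matched on intensity. The genes apart in IRF8KO were Ccne1 (2.04-fold), E2f1 (2.999), Ccnb2 (2.38) and Cdk1 (3.56). Those in IRF4/8DKO were Tk1 (2.89), Aurkb (2.02), Bub1 (2.82) and Cdk1 (2.69). By sex, with genotype as a block, 0 of the 35 genes passed (0.0336% of all probe sets did), and 1.19% of the 84 probe sets had an unadjusted p below 0.05, beside 2.94% of all. On summary probe sets, Aurkb had the lowest p of the 35 genes (female minus male -0.64 ± 0.28, limma unadjusted p = 0.0586). The probe set below 0.05 was another one of Mcm7, 1416030_a_at (female minus male 0.98, limma unadjusted p = 0.0251), where the arrays of the sexes overlapped.

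Regulators around these genes gave no call in any comparison either: 0 of 22 E2F, RB and G1/S regulators, 0 of 4 kept CDK inhibitors, 0 of 38 further replication genes and 0 of 39 spindle, kinetochore and cytokinesis genes by limma. At an unadjusted limma p below 0.05 in IRF8KO against WT these were 2, 1, 4 and 2, where 13.5% of all kept probe sets were. The CDK inhibitors, which block the G1 kinases, had medians of 0.57 in IRF8KO and 0.60 in IRF4/8DKO. By array, that list's median against the WT mean was 0.25 and -0.25 in WT. It was 0.39 and 0.71 in IRF8KO and 0.62 and 0.63 in IRF4/8DKO. Cdkn2c, an inhibitor of Cdk4 and Cdk6, read 652 and 794 in WT, 1177 and 1449.7 in IRF8KO, and 1176 and 1116 in IRF4/8DKO. All knockout arrays lay above WT, which held for 8.51% of all kept probe sets (both knockouts 0.76 ± 0.29, limma adjusted p = 0.356). Prim2, a primase subunit, read 394 and 354 in WT, 939.8 and 744 in IRF8KO, and 617 and 627 in IRF4/8DKO (IRF8KO 1.14 ± 0.38, limma adjusted p = 0.254). Rb1, which holds E2F factors, differed by 1.01 in IRF8KO (limma adjusted p = 0.368). Ube2c, a ubiquitin enzyme of mitotic exit, read 12612 in replicate 2 of IRF8KO and 1107 to 1920.4 on the other arrays.

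**Figure D4:**
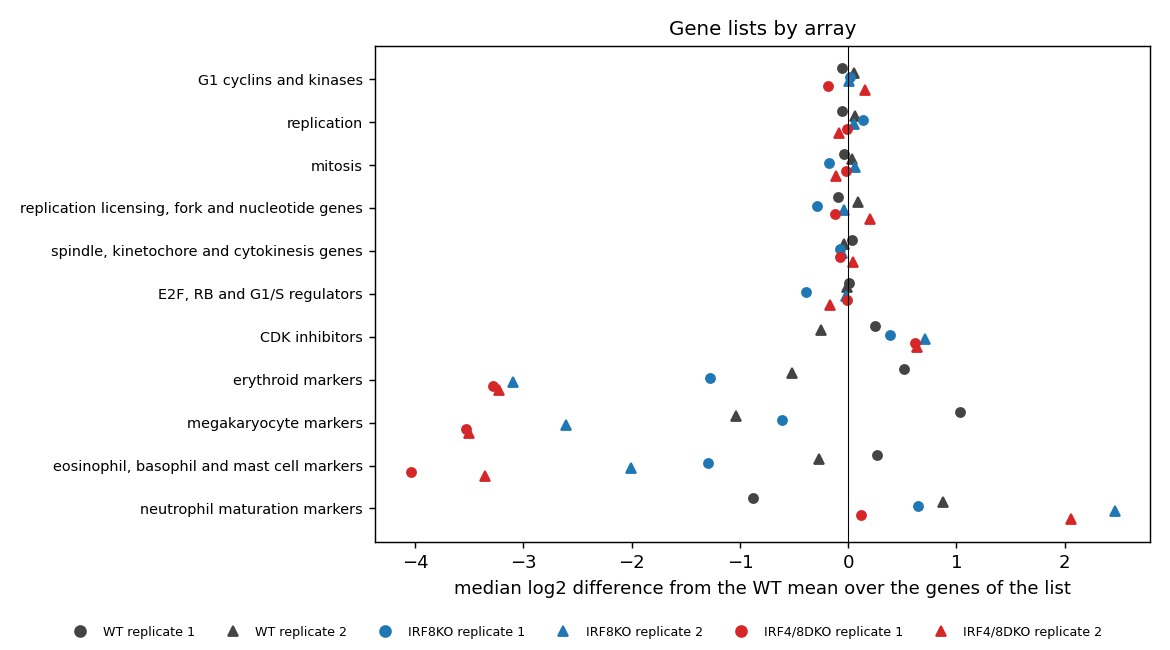
Median log2 difference from the WT mean (x axis) over the genes of each list (y axis), 1 point per array, coloured by genotype and shaped by replicate. The cell cycle lists lie between -0.39 and 0.20 and the CDK inhibitors up to 0.71, whereas the eosinophil, basophil and mast cell list reaches -4.04.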

How the data were processed

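The deposited values are linear intensities, 1 per probe set and array. The authors normalized the arrays and used dChip 1.3 with its PM/MM difference model, per the series' design text. The sources used here do not name the normalization method. Biotin-labelled cRNA started from 10 ng of RNA, per the labels' protocols. An array has no sequencing depth, and the number of arrays sets the precision. The arrays of a genotype differ in sex or age in the labels and so come from different mice.

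Values were taken as log2(intensity + 10.5), with 10.5 the 25th percentile of all values, so fold changes of low genes are understated. Probe sets had to exceed their array's 40th percentile on 2 or more arrays (29783 kept, 15254 left out). The 3 genotypes were fitted together in limma 3.58.1 (R 4.3.3, empirical Bayes with a variance trend, no covariates), with Benjamini-Hochberg adjustment over all kept probe sets and a threshold of 0.05. Sex was tested with genotype as a block. Errors are SE. Gene names came from GEO's platform annotation: 34945 probe sets had 1 symbol, 932 several and 9160 none in the table, and 1 probe set with several symbols that names a member was not used.

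The members and gene lists were chosen with earlier results of these data known. All members are named. Those with the 2 smallest unadjusted p per role group and comparison were picked, read on the summary probe set. That reading was settled after the values were seen. Not every pick has its statistics printed here. Alternatives were another pseudocount, filter, normalization, variance model, sample set, sex, age and replicate block, the mean over a gene's probe sets, and leaving out each array. Scaling over the kept probe sets only was added after the scaling over all probe sets had been seen.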

Additional observations from a re-analysis of the deposited data

Results flagged for a closer look

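Each knockout array was set against the WT array of its sex, on summary probe sets. Ccna2 and Cdc20 had both male knockout arrays on one side of the male WT array. Both their female knockout arrays lay on the other side of the female WT array. Ccna2 differed on average by 0.14 (log2) in the 2 male knockout arrays and by -0.32 in the 2 female ones. Cdc20 differed by -0.29 in the males and 0.16 in the females. On the other probe sets of both genes, the female knockout arrays lay on both sides of the female WT array. Each comparison rests on 1 WT array, the difference was not tested, and the check was added after values were seen. With every array on its side, it held for 2 of 35 genes (5.71%), beside 10.3% of all kept probe sets. The mean differences alone had opposite signs in 19 of the 35 genes, some by more than in these 2. Groups of 2 arrays are too small for a check of single arrays far from the rest.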

How the results depend on the processing

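No member passed the threshold under any of up to 21 alternatives per comparison, read on the summary probe set or the mean of a gene's probe sets. Of 66 differences of named probe sets, 59 kept their sign throughout and 7 of the 1289 recomputed values passed the threshold, all without replicate 1 of IRF8KO. With 2 arrays per genotype, many 2-fold differences could not be told from the spread between arrays.

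The count over all probe sets moved far more. In IRF8KO against WT (9) it was 21 and 5 with the low and the median pseudocount, 5 without a filter, 17 with the stricter one, 30 with quantile normalization, 5 without a variance trend, 17 with robust variance, and 2 with only the genotypes compared or sex as a block. In IRF4/8DKO against WT (89) it was 13 without a filter, 45 with median centring, 27 without a trend, 476 with only the genotypes compared and 0 with sex. In both knockouts (179) it was 70 without a filter, 116 with the stricter one, 109 with centring, 65 without a trend and 8 with sex. Age as a covariate gave 136, 229, 355 and, in IRF4/8DKO against IRF8KO (0), 2.

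The replicate block gave 209 in IRF8KO, 216 in IRF4/8DKO, 1 between them, 391 in both and 606 by sex (10), with 0 members. The numbers are not stated to pair mice: deviations of same-numbered arrays correlated at 0.04, 0.19 and 0.21, and sex and age differ within them.

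Centring or quantile normalization over all probe sets is the alternative as planned. It was briefly replaced by scaling over the kept probe sets after results had been seen, and both are given. The kept-only versions gave 34 (quantile) and 37 (centring) in IRF8KO. Centring over all moved the median of all probe sets to 0.08 in IRF8KO, 0.18 in IRF4/8DKO and 0.13 in both. The share of calls that were higher went from 33.3% to 50% in IRF8KO, 30.3% to 42.2% in IRF4/8DKO and 31.3% to 44% in both, and in IRF8KO was 43.3% with quantile normalization and, over kept probe sets, 47.1% and 45.9%.

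The members' median in IRF8KO (-0.02) became 0.12 with centring, 0.079 with kept-only centring and -0.13 with gene means. In IRF4/8DKO (-0.11) it became 0.11 with centring, -0.20 with either quantile version and -0.042 with gene means. Between the knockouts (0.01) it became 0.095 with centring, -0.068 with either quantile version and 0.10 with gene means. In both (-0.04) it became 0.14, 0.037 (kept-only centring) and -0.11 (either quantile version). The cause was not tested.

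Leaving out 1 array assumes that the lone array of its genotype varies like the others. Counts ran from 0 to 1090 in IRF8KO, 0 to 484 in IRF4/8DKO, 0 to 200 between them, 0 to 1020 in both and 5 to 34 by sex; the highest came without replicate 1 of IRF8KO (replicate 2 for IRF4/8DKO), and 0 without either WT array in the comparisons with WT. Member medians ran from -0.11 to -0.0050 in IRF4/8DKO, -0.12 to 0.012 between the knockouts and -0.083 to 0.039 by sex.

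Signs turned for small differences and, with 1 array left out, for some larger ones. Main values are in brackets. Between the knockouts, Ccnd2 1430127_a_at (0.0032) was -0.00184 with the median pseudocount, -0.00929 with quantile normalization (-0.00933 kept-only), -0.041 with kept-only centring and -0.45 to 0.45 leaving out 1 array. With 1 array left out, 1416122_at (0.15) ran there from -0.097 to 0.39 and 1455956_x_at (0.26) from -0.18 to 0.71. E2f1 1447840_x_at (-0.94) ran from -2.24 to 0.35. In IRF8KO against WT that E2f1 probe set (1.17) ran from -0.12 to 2.47. Aurkb (-0.47) ran from -0.97 to 0.032 in IRF4/8DKO against WT, and Tk1 (0.46) from -0.071 to 0.92 by sex.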
